A study of Mus musculus with 10 samples.

Results

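Lysyl oxidases and elastic fibre genes form a set of 10 genes: the lysyl oxidases Lox, Loxl1, Loxl2, Loxl3 and Loxl4, and the elastic fibre genes Eln, Fbn1, Fbn2, Fbln5 and Mfap5. They were followed across 4 groups of mouse uterus measured on 10 Illumina bead arrays. Members were taken as every probe that the platform annotation names for one of these symbols, which gave 11 of the 45281 probes, for 7 of the 10 genes (19074 genes have a named probe). No probe is named for Loxl2, Fbn1 or Fbn2 in that annotation as used here, and their levels are not reported. A probe was tested when its signal was above background, at a detection p under 0.05, on at least 2 of the 10 arrays. That left 7 probes of 5 genes (Lox, Loxl1, Loxl4, Eln and Mfap5) among 23942 tested probes. The other 4 probes, of Loxl1, Loxl3, Loxl4 and Fbln5, were not above background on any array.

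All animals were female offspring of the outbred CD-1 stock, ovariectomised at 6 weeks of age, so that the ovarian source of estrogen was absent in every group. From gestation day 9 to 21 the mothers were given either DMSO or, intraperitoneally, 5 mg/kg per day of bisphenol A (BPA), a building block of plastics with estrogenic activity. At 8 weeks the offspring received 300 ng of estradiol (E2) or DMSO, and the uterus was collected 6 h later. The groups are named by in utero exposure and then by injection: vehicle-vehicle (2 arrays), vehicle-E2 (2 arrays), BPA-vehicle (3 arrays) and BPA-E2 (3 arrays). RNA was pooled by litter before hybridisation. Within an exposure, arrays of both injections with the same number in their titles were taken as the same litter (2 vehicle-exposed and 3 BPA-exposed). The number of animals in a pool is not given in the sources used here. Slide 1 carried the 4 vehicle-exposed arrays and slide 2 the 6 BPA-exposed ones, so that slide and exposure cannot be told apart in any comparison between exposures. E2 and vehicle injection were compared within a slide.

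Elastic fibres give a tissue its recoil. Tropoelastin, encoded by Eln, is deposited on a scaffold of fibrillin microfibrils decorated with microfibril-associated glycoproteins such as the product of Mfap5, and fibulins help to place it there. Lysyl oxidases, copper-dependent enzymes secreted by fibroblasts and smooth muscle cells, then oxidise lysine side chains of elastin and of fibrillar collagens, which makes the permanent crosslinks between the molecules. In the uterus these fibres lie in the myometrium, the stroma and the vessel walls, and they are rebuilt as the organ grows and regresses.

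Levels are given as normalized log2 intensity, and changes as differences of log2 means ± standard error, from 1 limma fit over all 10 arrays. Each p-value comes from limma and was adjusted by the Benjamini-Hochberg method over all 23942 tested probes, with a call at an adjusted p under 0.05. It reflects no more than the spread among the arrays of a group, and the levels of different probes are not compared with each other. Median raw signal was 122 to 132 per array, 43.6% to 46.6% of probes were detected, and arrays of 1 group correlated at r = 0.991 to 0.993. Of 8 listed uterine markers 7 were tested, among them Hoxa10, Hoxa11, Esr1 and Pgr. Their summed linear level was 3965 to 4267 on the vehicle-vehicle arrays and 7756 to 7909 on the BPA-E2 arrays.

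Lox, the founding lysyl oxidase, had the widest range of the set. Its probe (ILMN_2997494) read 12.30 and 12.13 on the vehicle-vehicle arrays and 11.85 and 11.87 on the vehicle-E2 arrays. It read 11.52, 11.53 and 11.54 on the BPA-vehicle arrays and 9.33, 9.30 and 9.39 on the BPA-E2 arrays. No groups overlapped: the vehicle-vehicle arrays were highest, then vehicle-E2, then BPA-vehicle, and the 3 BPA-E2 arrays lay far below all others. After BPA in utero, Lox was 4.56-fold lower with E2 (95% interval 4.06 to 5.12), a log2 change of -2.19 ± 0.07 (adjusted p = 4.14e-07). Of the 23942 tested probes, 76 (0.317%) had a change as low as this or lower.

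After vehicle in utero, Lox fell by 0.36 ± 0.09 on the log2 scale with E2 (adjusted p = 0.0265). That call was lost when litter was fitted as a block (adjusted p = 0.0819), in a fit of these 4 arrays alone, and without vehicle-vehicle array 1 or either vehicle-E2 array. The difference between the E2 responses, BPA minus vehicle exposure, was -1.83 ± 0.12 (adjusted p = 2.7e-05). Between exposures, Lox was lower after BPA under both injections. It was 1.61-fold lower among vehicle-injected offspring (log2 change -0.69 ± 0.08, adjusted p = 0.000448) and 5.73-fold lower among E2-injected offspring (log2 change -2.52 ± 0.08, adjusted p = 2.74e-07).

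**Figure D1:**
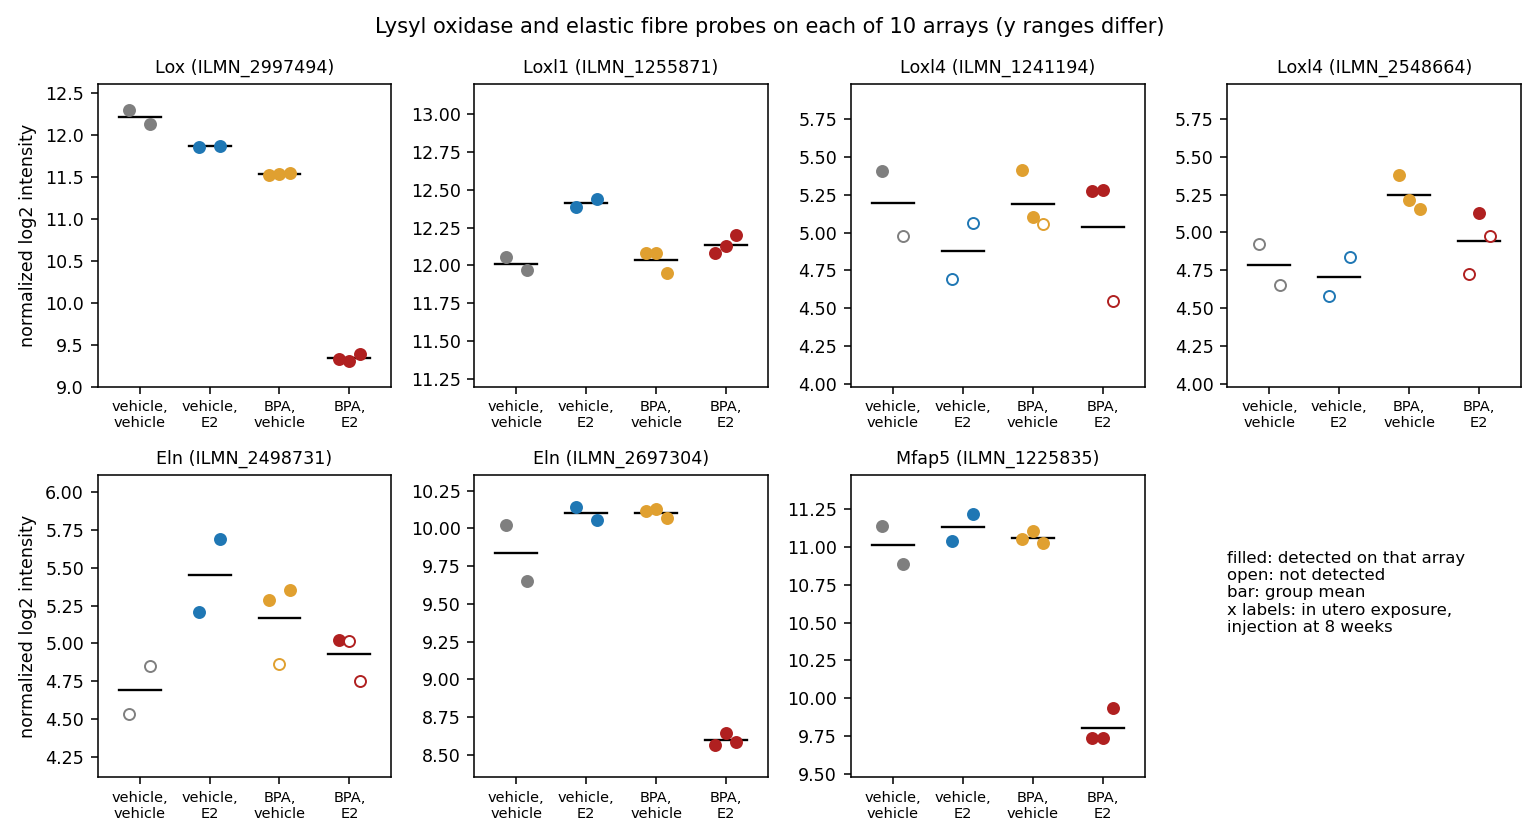
Normalized log2 intensity (y axis, a separate range in each panel) of the 7 tested probes on each of the 10 arrays, by group on the x axis. Filled points were detected on that array, open points were not, and bars are group means. The 3 BPA-E2 arrays lie at 9.30 to 9.39 for Lox, 8.56 to 8.65 for Eln (ILMN_2697304) and 9.73 to 9.94 for Mfap5, below every other array, while Loxl1 stays between 11.95 and 12.44.

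Loxl1, a lysyl oxidase that mice need to maintain elastic fibres in adult tissues, moved little. Its detected probe (ILMN_1255871) read 12.06 and 11.97 on the vehicle-vehicle arrays, 12.39 and 12.44 on the vehicle-E2 arrays, 12.08, 12.08 and 11.95 on the BPA-vehicle arrays, and 12.08, 12.13 and 12.20 on the BPA-E2 arrays. The vehicle-E2 arrays lay above the other 8, and the other groups overlapped or nearly touched. With E2 after vehicle in utero Loxl1 rose by 0.40 ± 0.09 (adjusted p = 0.0187), a call lost with a litter block (adjusted p = 0.0757), in the 4 arrays alone, and without vehicle-vehicle array 2 or either vehicle-E2 array. With E2 after BPA its change was 0.10 ± 0.08 (adjusted p = 0.400), with a 95% interval of -0.08 to 0.27. The difference between these responses was -0.30 ± 0.12 and missed the threshold (adjusted p = 0.147).

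Among E2-injected offspring Loxl1 was lower after BPA by a log2 change of -0.28 ± 0.09 (adjusted p = 0.0409). That call was lost in 9 of 20 alternatives, among them a fit without a filter on dim probes (adjusted p = 0.0666). Among vehicle-injected offspring its change was 0.03 ± 0.09 (adjusted p = 0.853). The calls for Lox and Loxl1 with E2 after vehicle in utero ran in opposite directions. The second Loxl1 probe (ILMN_1257592) stayed at background, at 4.34 to 4.54 on the 10 arrays.

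Loxl4, a lysyl oxidase with scavenger receptor domains, lay close to background. Probe ILMN_1241194 was detected on 5 of 10 arrays, between 4.55 and 5.41, and no comparison was called. Probe ILMN_2548664 was detected on 4 arrays, all of them BPA-exposed: on all 3 BPA-vehicle arrays (5.38, 5.22 and 5.16) and on 1 of 3 BPA-E2 arrays (4.73, 5.13 and 4.98). It read 4.93 and 4.65 on the vehicle-vehicle arrays and 4.58 and 4.84 on the vehicle-E2 arrays, not well above background on any of these. It thus entered the test only through the BPA-vehicle group, where it is highest, so its comparison between exposures under vehicle was conditioned on its own outcome and nothing is read from it. No size is given for that comparison, which limma called (adjusted p = 0.0482, and 0.0721 without a filter on dim probes). This was its only call, it was lost in 15 of 18 alternatives, and the other detected Loxl4 probe had a change of 0.00 ± 0.25 there. Where a change is given below as at least a fold, the mean of the brighter group was set against the dim arrays. The dim level was the lowest signal that counts as detected there, or the dim probe's own signal where higher. The remaining Loxl4 probe (ILMN_1255356) read 4.38 to 5.01 and the Loxl3 probe 4.35 to 5.00, without detection on any array.

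Eln, which encodes tropoelastin, the elastic core of the fibre, has 2 tested probes. The bright probe (ILMN_2697304) read 10.02 and 9.65 on the vehicle-vehicle arrays, 10.14 and 10.06 on the vehicle-E2 arrays, 10.11, 10.13 and 10.07 on the BPA-vehicle arrays, and 8.56, 8.65 and 8.59 on the BPA-E2 arrays. The BPA-E2 arrays lay below all others, and the other groups lay close together, with vehicle-vehicle array 2 the lowest of them. After BPA, Eln was 2.84-fold lower with E2 (95% interval 2.42 to 3.32), a log2 change of -1.50 ± 0.10 (adjusted p = 1.34e-05). After vehicle in utero the change with E2 was 0.26 ± 0.12 (adjusted p = 0.176), and the difference between the responses was -1.77 ± 0.16 (adjusted p = 0.000192). Among E2-injected offspring Eln was 2.83-fold lower after BPA (log2 change -1.50 ± 0.11, adjusted p = 3.22e-05). Among vehicle-injected offspring its change was 0.27 ± 0.11 (adjusted p = 0.111), and 4 of 20 alternatives called it. They were the fit without vehicle-vehicle array 1 (0.45, adjusted p = 0.0200), no background correction (0.24, adjusted p = 0.0239), the authors' deposited table (0.24, adjusted p = 0.0315) and a variance trend (0.27, adjusted p = 0.0199).

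The dim Eln probe (ILMN_2498731) was detected on 5 arrays and gave other calls. It read 4.54 and 4.85 on the vehicle-vehicle arrays, 5.21 and 5.69 on the vehicle-E2 arrays, 5.29, 4.86 and 5.35 on the BPA-vehicle arrays, and 5.03, 5.02 and 4.75 on the BPA-E2 arrays. It was not well above background on either vehicle-vehicle array, and it was at least 1.32-fold higher with E2 after vehicle in utero (adjusted p = 0.0407). That call was lost in 12 of 19 alternatives, litter as a block among them (adjusted p = 0.0539). With E2 after BPA its change was -0.24 ± 0.18 (adjusted p = 0.375), and the difference between the responses missed the threshold (adjusted p = 0.0503) but was called in 7 of 18 alternatives. No size is given for that difference, because the vehicle-vehicle level is at background. Both probes had a negative fitted change with E2 after BPA and a positive one after vehicle, but no comparison was called for both.

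Mfap5 encodes a microfibril-associated glycoprotein that binds fibrillin. Its probe (ILMN_1225835) read 11.14 and 10.89 on the vehicle-vehicle arrays, 11.04 and 11.22 on the vehicle-E2 arrays, 11.05, 11.11 and 11.03 on the BPA-vehicle arrays, and 9.73, 9.74 and 9.94 on the BPA-E2 arrays. The first 3 groups overlapped one another, and the BPA-E2 arrays lay below all of them. After BPA, Mfap5 was 2.40-fold lower with E2 (95% interval 2.05 to 2.80), a log2 change of -1.26 ± 0.10 (adjusted p = 4.07e-05). After vehicle in utero its change with E2 was 0.12 ± 0.12 (adjusted p = 0.570), with a 95% interval of -0.16 to 0.39. The difference between the responses was -1.38 ± 0.16 (adjusted p = 0.00075). Mfap5 was 2.51-fold lower after BPA among E2-injected offspring (log2 change -1.33 ± 0.11, adjusted p = 6.34e-05), and its change was 0.05 ± 0.11 among vehicle-injected offspring (adjusted p = 0.791). Fbln5, a fibulin that mice need to assemble elastic fibres, has 1 probe, which read 4.32 to 4.61 and was not detected on any array, so that its response could not be measured here.

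Counted by probe, 3 of the 7 tested probes were called with E2 after vehicle in utero, 2 higher (Loxl1 and the dim Eln probe) and 1 lower (Lox), where 18.1% of all tested probes were called, 8.96% higher and 9.11% lower. With E2 after BPA 3 of 7 were called, all lower (Lox, the bright Eln probe and Mfap5), where 24.9% of all probes were called, 13% higher and 11.9% lower. The same 3 probes were called in the difference between the responses, all lower, against 12.1% of all probes, 6.01% higher and 6.14% lower. For the BPA effect 2 of 7 were called among vehicle-injected offspring, Lox lower and the Loxl4 probe that passed the filter only through the BPA-vehicle arrays higher, and without that probe 1 of 6, against 26.9% of all probes, 14.2% higher and 12.7% lower. Among E2-injected offspring 4 of 7 were called, all lower (Lox, Loxl1, the bright Eln probe and Mfap5), against 26.5% of all probes, 13.7% higher and 12.8% lower. The values of the compared groups did not overlap for 4 of 7 probes with E2 after vehicle in utero, 4 with E2 after BPA, 4 between exposures under vehicle (the dim Loxl4 probe ILMN_2548664 among them) and 5 under E2, where 56.6%, 42.9%, 51.7% and 53.8% of all tested probes did not. With 7 probes of 5 genes these shares are a description. The median change over all tested probes was -0.01 to 0.04 in the 5 comparisons.

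**Figure D2:**
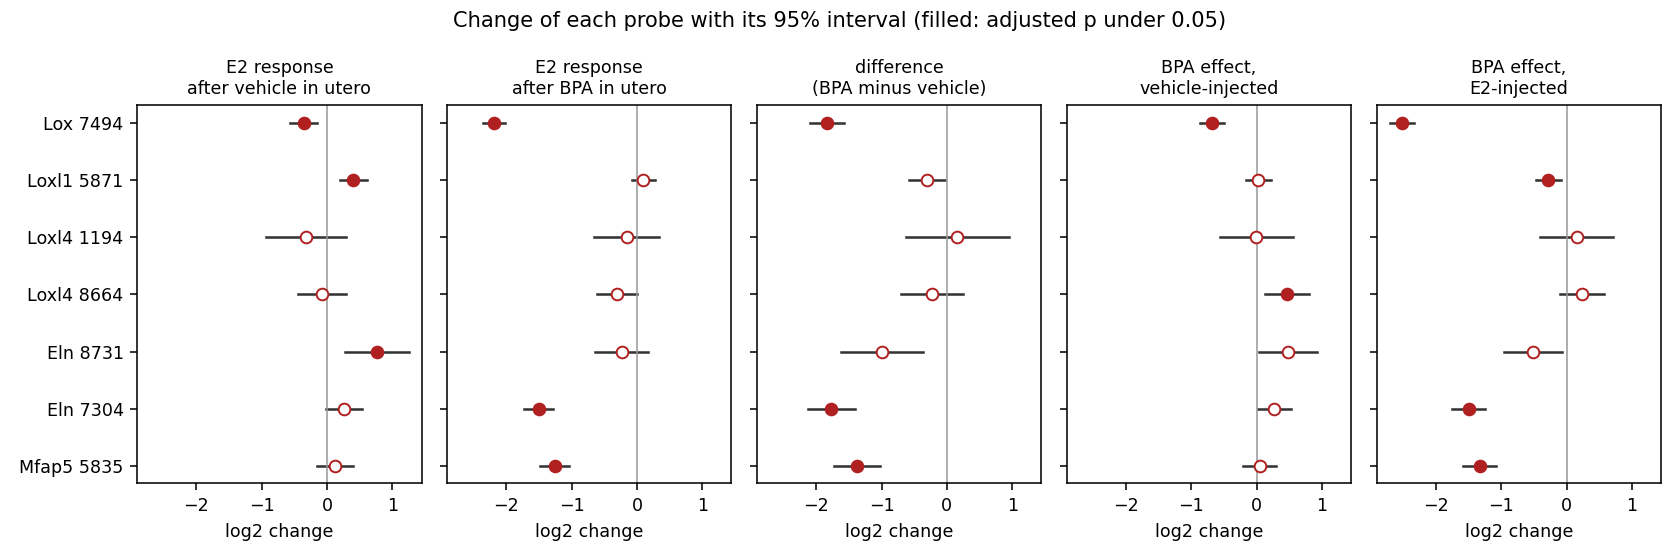
Log2 change (x axis) of each of the 7 tested probes (y axis, gene and end of the probe number) in the 5 comparisons, with 95% intervals as lines. Filled points passed an adjusted p under 0.05. Lox, the lower of both Eln rows and Mfap5 lie at -2.19, -1.50 and -1.26 with E2 after BPA in utero and at -0.36, 0.26 and 0.12 with E2 after vehicle in utero.

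Within the set, Eln and Mfap5 had the most similar profiles over the 10 arrays. After each probe was centred on its own mean, the root mean square difference between them was 0.138 log2 units, the smallest of all pairs of member genes. The vehicle-vehicle, vehicle-E2 and BPA-vehicle arrays lay close together for both genes, whereas Lox was lower in each group in turn. Likeness by the same measure was computed against 20073 other probes with a gene symbol. Closest to Lox were the glucose transporter family gene Slc5a9 (0.121 log2 units), the secreted sushi-repeat protein gene Srpx2 (0.137) and the small proline-rich protein gene Sprr2f (0.165), of a family whose near-identical members a probe may not separate.

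Closest to Eln were the mitotic gene Birc5 (0.118), the mitotic entry gene Cdca3 (0.119) and Gch1, the first enzyme of tetrahydrobiopterin synthesis (0.130). Closest to Mfap5 were the autophagy gene Wipi1 (0.0965), the ion pump regulator Fxyd3 (0.114) and the protease inhibitor Serpinb1a (0.114). Loxl1, whose own spread over the arrays was only 0.154, lay closest to Nav1, Uxt and Fam3c (0.0441 to 0.0553), and the detected Loxl4 probe with the highest mean lay closest to Kdm5a, Cmya5 and Lrrc40 (0.136 to 0.153). The 10 arrays share 4 group means, so that likeness over them mostly records the same ordering of groups, and it is given as a description.

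The genes that build the fibre with these members were read from 6 lists. For lists, the brightest probe stood for each of 12403 genes. With E2 after vehicle in utero 21.1% of these genes were called, 10.1% higher and 11% lower, and with E2 after BPA 28.1%, 13.9% higher and 14.2% lower, each with a median change of 0.02. In the difference between the responses 14.2% were called, 6.79% higher and 7.41% lower, with a median of -0.02. For the BPA effect 29.9% were called among vehicle-injected offspring (14.7% higher, 15.2% lower) and 30.1% among E2-injected offspring (13.9% higher, 16.2% lower), each with a median of 0.01.

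Of 22 elastic fibre and microfibril partners 17 were tested. With E2 after BPA 5 were lower and 1 higher (median change -0.25), and with E2 after vehicle in utero 2 were lower and 3 higher (median -0.09). Mfap2, which encodes the other small microfibril-associated glycoprotein, had the largest called fall among the partners. It read 11.26 and 11.11 on the vehicle-vehicle arrays, 10.68 and 10.81 on the vehicle-E2 arrays, 10.72, 11.07 and 10.90 on the BPA-vehicle arrays, and 9.09, 9.29 and 9.23 on the BPA-E2 arrays. The BPA-E2 arrays lay below all others. Mfap2 fell by 1.70 ± 0.11 with E2 after BPA, and the difference between the responses was -1.26 ± 0.17 (adjusted p = 0.00184).

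Fbln2, a fibulin of microfibrils and basement membranes, rose by 0.91 with E2 after vehicle and fell by 0.39 with E2 after BPA, a difference of -1.31. With E2 after vehicle another Fbln2 probe was called at 0.89, and a further one was not, at 0.27 (limma adjusted p = 0.306). In the difference both of these probes were called, at -1.42 and -1.07. Mfap4, an elastic fibre glycoprotein, rose by 0.50 with E2 after vehicle and fell by 0.33 with E2 after BPA, a difference of -0.83. Adamts10, a secreted metalloproteinase family member that binds fibrillin, fell by 0.96 with E2 after BPA, although the value for another of its probes was 0.13, and Adamtsl4 fell in both responses (by 0.62 after vehicle and 0.50 after BPA), and neither call held once litter was a block (adjusted p = 0.0757 and 0.0606). Fbln1 was the 1 partner called higher with E2 after BPA (0.36). Among vehicle-injected offspring 3 partners were called, all higher after BPA: Thsd4, a microfibril-binding protein (1.03), Fbln2 (0.88) and Adamtsl2 (at least 1.41-fold). Among E2-injected offspring 3 were higher and 4 lower after BPA, with Mfap2 at -1.54, Thsd4 at 0.74 and Mfap4 at -0.67.

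All 11 tested collagen genes were lower with E2 after BPA (median -0.68), and 9 of 11 were lower in the difference between the responses (median -0.91). These are the other substrates of the lysyl oxidases and their neighbours: Col1a2 fell by 1.65 ± 0.12, Col1a1 by 1.53 ± 0.08 and Col3a1 by 1.41 ± 0.13. After vehicle in utero 2 collagens were higher with E2 (Col14a1 by 0.39 and Col4a1 by 0.28) and 1 lower (Col1a1, a fall of 0.34). With litter as a block none of these 3 was called (adjusted p = 0.0758, 0.127 and 0.114). A second Col14a1 probe was at 0.03 in that response (limma adjusted p = 0.952). Among vehicle-injected offspring 4 of 11 collagens were higher after BPA and 0 lower (median 0.28), where limma also gave 0 lower at an unadjusted p under 0.05. Col5a3 was higher there by 0.63, Col3a1 by 0.46 and Col14a1 by 0.38, while Lox was lower. The calls of Col5a3 and Col3a1 were each lost in 11 of 20 alternatives, with values of 0.19 to 1.02 and 0.28 to 0.64. A second Col3a1 probe was called there at 0.60 (limma adjusted p = 0.00331). The second Col14a1 probe was at -0.11 among vehicle-injected offspring. Among E2-injected offspring 9 of 11 were lower after BPA (median -0.67), with Col1a1 at -1.18, Col1a2 at -0.97 and Col6a1 at -0.84.

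**Figure D3:**
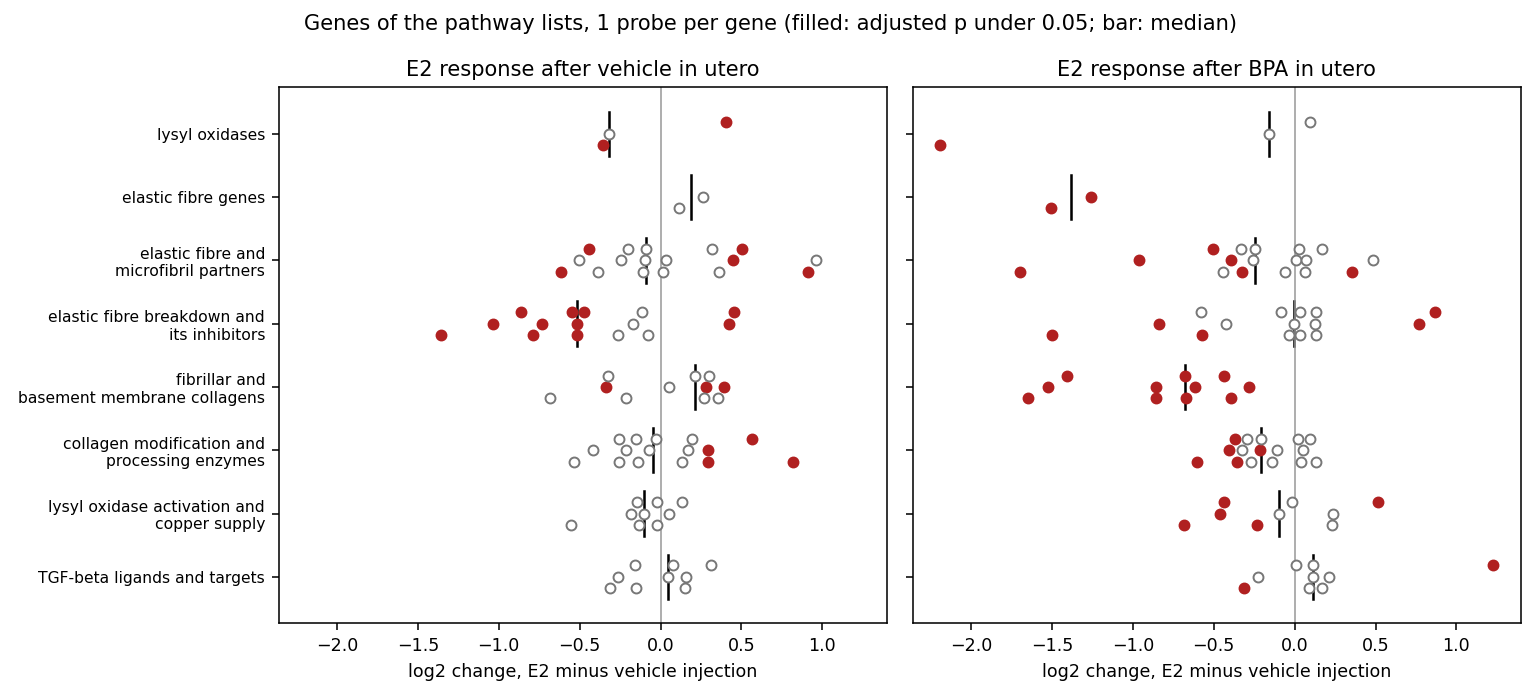
Log2 change with E2 (x axis) of the tested genes of each list (y axis), 1 probe per gene, after vehicle in utero on the left and after BPA in utero on the right. Filled points passed an adjusted p under 0.05 and vertical bars are list medians. The breakdown list keeps Mmp7, which passed the filter only through the vehicle-vehicle arrays, where it is high. Mmp7 is among the filled points below 0 on the left, where that list's median is -0.51 with it and -0.49 without it. All 11 collagens are filled and below 0 on the right with a median of -0.68, against 1 filled point below 0 and a median of 0.21 on the left.

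Of 16 tested collagen-modifying and processing enzymes 5 were lower and 0 higher with E2 after BPA (median -0.21), with 0 higher at limma's unadjusted p under 0.05 as well. Plod2, the lysyl hydroxylase that prepares collagen lysines for a lysyl oxidase crosslink, had opposite responses. It read 10.16 and 10.16 on the vehicle-vehicle arrays, 10.88 and 11.07 on the vehicle-E2 arrays, 10.67, 10.67 and 10.62 on the BPA-vehicle arrays, and 10.07, 10.07 and 10.01 on the BPA-E2 arrays. It rose by 0.82 with E2 after vehicle and fell by 0.61 with E2 after BPA, a difference of -1.42 ± 0.12 (adjusted p = 0.000132). P4ha2 (a fall of 0.41) and the prolyl isomerase Ppib (a fall of 0.37) were also lower with E2 after BPA. With E2 after vehicle in utero 4 enzymes were higher, Pcolce2 by 0.57 and Plod3 by 0.29 among them, and 0 were lower, against 4 lower at an unadjusted p under 0.05. Plod3 was not called with litter as a block (adjusted p = 0.114). In that response another Pcolce2 probe was at 0.36 and another Plod3 probe at 0.03, neither called (limma adjusted p = 0.105 and 0.919). Among vehicle-injected offspring 8 of 16 were higher after BPA and 1 lower (median 0.29), led by Pcolce2 (1.16), a procollagen proteinase enhancer, with P3h2 the lower gene (-0.77). Among E2-injected offspring 2 were higher and 3 lower, with Plod2 at -0.93, P4ha1 at 0.75 and Pcolce2 at 0.48.

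Of 9 tested genes for lysyl oxidase activation and copper supply, 4 were lower and 1 higher with E2 after BPA (median -0.10). Bmp1, the proteinase that releases active Lox from its precursor, fell by 0.43. Fn1, fibronectin, which helps that cleavage, fell by 0.46, the proteoglycan gene Lum by 0.68 and the copper chaperone gene Atox1 by 0.24, while Thbs1 rose by 0.51. Another Fn1 probe was called in that response at -0.86, and further ones at -0.31 and -0.17 were not (limma adjusted p = 0.427 and 0.524). With E2 after vehicle in utero 0 of 9 were called by limma, and 1 had an unadjusted p under 0.05. In the difference between the responses Lum was at -0.58, Fn1 at -0.51 and Thbs1 at 0.69, none of them called once litter was a block (adjusted p = 0.0578, 0.0717 and 0.0844). The other Fn1 probes were at -0.80, -0.71 and -0.10 in the difference, and limma called none of them. After BPA, Thbs1 (-0.70) and Lum (-0.43) were lower among vehicle-injected offspring, and 5 of 9 were lower among E2-injected offspring, with Lum at -1.01 and Atox1 at -0.43.

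Of 15 tested genes for elastic fibre breakdown and its inhibitors, Mmp7 was detected on the vehicle-vehicle arrays alone. It passed the filter only through the group where it is high, so it is left out of the counts that follow, over 14 genes. With E2 after vehicle in utero 8 were lower and 2 higher (median -0.49). Mmp9, a gelatinase that also cuts elastin, fell by 1.36, and the cathepsin genes Ctss and Ctsl fell by 1.03 and 0.86. With E2 after BPA 3 were lower and 2 higher (median -0.02). Ctsk, whose product cathepsin K degrades elastin and collagen, fell by 1.50 and the elastase gene Cela1 by 0.84, while the inhibitor gene Timp3 rose by 0.86. Another Timp3 probe was called at 0.82, and a further one was not, at 0.20 (limma adjusted p = 0.450). In the difference between the responses 5 were higher, led by Timp4 (1.56, not well above background on the BPA-vehicle arrays), and 2 lower, led by Ctsk (-0.98). Among vehicle-injected offspring 9 of 14 were lower after BPA (median -0.63), with Mmp9 at -1.68 and Ctsl at -1.35. Among E2-injected offspring 7 were lower and 2 higher, with Ctsk at -1.58, Ctsl at -1.06 and Cela1 at -0.99.

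Macrophages express several of these protease genes, so macrophage markers were read beside them. Of 7 tested macrophage markers 5 were lower with E2 after vehicle in utero, and 6 were lower after BPA among vehicle-injected offspring. With E2 after BPA 2 were lower and 1 higher (median -0.13). In the difference between the responses 4 were higher and 0 lower (median 0.97), with 1 lower at limma's unadjusted p under 0.05. Among E2-injected offspring 3 were lower and 1 higher after BPA (median -0.27). Their summed linear level was 17092 to 17362 on the vehicle-vehicle arrays, 8993 to 9261 on the vehicle-E2 arrays, 6663 to 7025 on the BPA-vehicle arrays and 5767 to 5938 on the BPA-E2 arrays. Their part in the protease values was not tested.

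Of 9 tested TGF-beta ligands and targets, a pathway known to raise Lox and Eln in cultured mesenchymal cells, 1 was higher and 1 lower with E2 after BPA (median 0.11). Tgfbi rose by 1.23 ± 0.08 and Pmepa1 fell by 0.31, the latter not called with litter as a block (adjusted p = 0.0914). After vehicle in utero limma called 0 of 9 with E2, and 2 had an unadjusted p under 0.05. In the difference Tgfbi was at 1.15, Pmepa1 at -0.62 and Ccn2 at 0.53, and with the block Pmepa1 and Ccn2 were not called (adjusted p = 0.0836 and 0.0812). Another Ccn2 probe was called in the difference without the block, at 1.24 (limma adjusted p = 0.00102). After BPA, Ccn2 (-0.87) and the receptor gene Tgfbr1 (-0.65, with another of its probes at 0.10) were lower and Tgfb2 higher (0.81) among vehicle-injected offspring. Among E2-injected offspring Tgfbi was higher by 1.19, Tgfb2 by 0.66, and Pmepa1 was lower (-1.10). Another Pmepa1 probe was not called there, at -0.51 (limma adjusted p = 0.0698). Nor was that probe called with E2 after BPA (-0.16) or in the difference (-0.40).

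Promoter sequence was available for 3 of the 10 set members (Loxl4, Fbn1 and Fbln5), none of which was well measured. It is therefore shown for Mfap2, Col1a2 and Col3a1. Among genes with a window, these had the largest called falls of their lists with E2 after BPA. They were picked by that fall, which Lox, Eln (ILMN_2697304) and Mfap5 shared, and not by their other comparisons. Among vehicle-injected offspring, for example, Col3a1 was at 0.46 after BPA and Lox at -0.69. Each line gives the 250 bases before an annotated start, 5′ to 3′ on the gene's strand, from RefSeq on GRCm38.p6. Mfap2 has 2 annotated starts, with windows at chr4:141010174-141010423 and chr4:141010431-141010680. The Col1a2 window is chr6:4505368-4505617 and the Col3a1 window chr1:45311288-45311537, and all 4 windows lie on the plus strand.
Mfap2, first start: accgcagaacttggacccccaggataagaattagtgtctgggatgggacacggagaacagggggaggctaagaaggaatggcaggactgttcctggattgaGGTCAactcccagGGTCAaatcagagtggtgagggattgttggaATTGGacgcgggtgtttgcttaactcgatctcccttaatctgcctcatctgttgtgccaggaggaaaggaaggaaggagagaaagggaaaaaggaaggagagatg
Mfap2, second start: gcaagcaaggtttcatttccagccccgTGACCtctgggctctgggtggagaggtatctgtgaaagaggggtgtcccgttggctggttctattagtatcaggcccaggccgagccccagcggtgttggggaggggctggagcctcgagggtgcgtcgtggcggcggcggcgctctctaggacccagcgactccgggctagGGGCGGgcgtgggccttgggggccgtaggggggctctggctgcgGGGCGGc
Col1a2: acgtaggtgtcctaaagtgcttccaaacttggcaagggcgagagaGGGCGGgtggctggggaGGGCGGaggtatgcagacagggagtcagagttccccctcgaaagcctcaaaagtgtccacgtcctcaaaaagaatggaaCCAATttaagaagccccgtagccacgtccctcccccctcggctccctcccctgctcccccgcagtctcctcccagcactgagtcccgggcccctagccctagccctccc
Col3a1: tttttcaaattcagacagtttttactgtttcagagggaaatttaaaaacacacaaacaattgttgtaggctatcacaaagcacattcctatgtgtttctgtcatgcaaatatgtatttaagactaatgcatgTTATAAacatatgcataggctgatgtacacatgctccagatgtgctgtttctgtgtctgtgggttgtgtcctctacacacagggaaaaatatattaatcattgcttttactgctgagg
Capitals mark matches on either strand to 4 short motifs. They are TATAA, the core of the box that binds the TBP protein, and CCAAT, which binds nuclear factor Y. The others are GGTCA, an arm of the estrogen response element, and GGGCGG, which binds Sp1. The first Mfap2 window holds GGTCA at 2 places and CCAAT at 1, and the second holds GGTCA at 1 place and GGGCGG at 2. The Col1a2 window holds CCAAT at 1 place and GGGCGG at 2, and the Col3a1 window holds TATAA on both strands at overlapping letters. Of 32851 windows of this length, 22.8% hold TATAA, 33.8% CCAAT, 35.2% GGTCA and 32.7% GGGCGG. No motif is held by all 4 windows, and a match is a run of letters, not a measured binding site.

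Elastic fibres and lysyl oxidases are made mainly by fibroblasts and smooth muscle, so the markers of these cells were read beside them. In RNA of a whole organ, fewer cells of a type and less RNA per cell cannot be told apart. Of 10 fibroblast and stromal markers 6 were lower and 1 higher with E2 after BPA (median -0.38). Their summed linear level was 54688 to 57453 on the vehicle-vehicle arrays, 51801 to 51907 on the vehicle-E2 arrays, 50626 to 51197 on the BPA-vehicle arrays and 39631 to 41478 on the BPA-E2 arrays. Col1a1, Col3a1, Dcn and Lum stand on that list as well as on the lists above or in the matrix itself. Among the other markers Vcan fell by 0.87, Vim by 0.47 and Pdgfra by 0.29, Thy1 rose by 0.59, and the values for Pdgfrb and Dpt were 0.01 and -0.09. For Dcn, decorin, the change was -0.02 (adjusted p = 0.885).

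Of 10 smooth muscle markers, Synpo2 was detected on the BPA-E2 arrays alone. It passed the filter only through the group where it is high, so it is left out of the counts here. Of the other 9 markers 6 were lower and 0 higher with E2 after BPA (median -0.39), with Actg2 at -1.02 and Acta2 at 0.03. The sum over all 10 was 98798 to 99649 on the vehicle-vehicle arrays and 84922 to 91191 on the vehicle-E2 arrays. It was 91597 to 96554 on the BPA-vehicle arrays and 73285 to 76958 on the BPA-E2 arrays. Epithelial markers also moved: of 8 tested, 7 were lower with E2 after BPA (median -0.94), and their sum was 8547 to 9164 on the BPA-E2 arrays against 16191 to 22672 on the other 7. Of 4 tested adipocyte markers 3 were higher with E2 after BPA, and on the BPA-E2 arrays the sum of all 4 was 4166 to 4404 against 1278 to 2498 elsewhere. The adipocyte genes Plin1 and Fabp4 have named probes that did not pass the detection filter. Retn, which was tested, was not detected on any vehicle-vehicle or BPA-E2 array. The part of any of these cell types in the fall of Lox, Eln and Mfap5 was not tested.

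**Figure D4:**
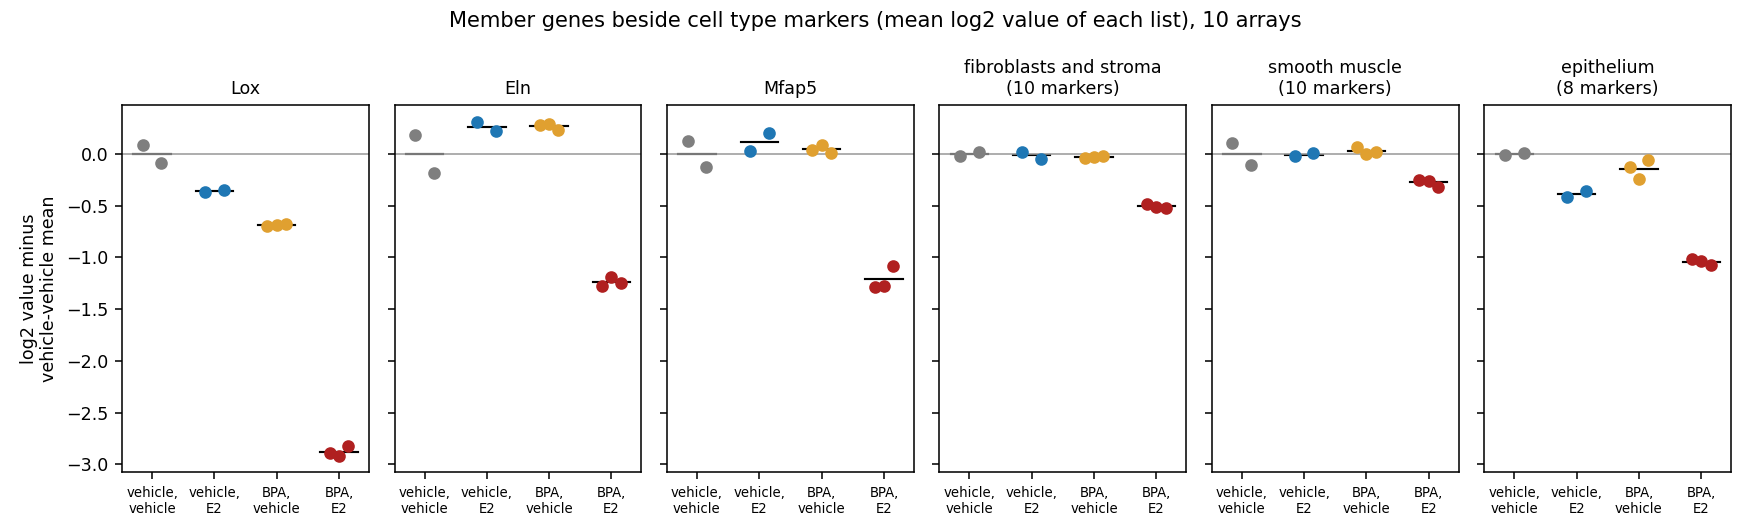
Log2 value minus the vehicle-vehicle mean (y axis, shared by all panels) on each of the 10 arrays, by group on the x axis, for Lox, Eln (ILMN_2697304), Mfap5 and the mean log2 value of 3 marker lists (10, 10 and 8 genes). Points are arrays and bars are group means. The smooth muscle mean keeps Synpo2, which passed the filter only through the BPA-E2 arrays, where it is high, and which raises that mean there. On the BPA-E2 arrays Lox lies between -2.91 and -2.82, Eln between -1.27 and -1.19 and Mfap5 between -1.28 and -1.08, while the fibroblast mean lies between -0.52 and -0.48, the smooth muscle mean between -0.32 and -0.25 and the epithelial mean between -1.08 and -1.01.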

How the data were processed

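Uterine RNA of 10 litter pools in 4 groups was hybridised to Illumina bead arrays after TRIzol and RNeasy purification and biotin labelling, per the labels' protocols. The deposited non-normalized table gives the mean bead intensity per probe on a linear scale and, in separate columns, a detection p-value, per the file headers. A second deposited table holds processed intensity values, with column medians of 129.2398 to 129.284. Each of its columns (10 of 10) matched its own array best. How the authors made it is not given in the sources used here, and it served as an alternative. The platform annotation gives 1 gene symbol for 34885 probes, several for 18 and none for 10378.

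The neqc function of limma 3.58.1 (R 4.3.3) corrected the background from detection p-values, added an offset of 16, quantile-normalized the arrays and returned log2 values. Every probe with a detection p under 0.05 on at least 2 arrays entered 1 limma fit of 4 group means. It gave the E2 response after each exposure, their difference, and the BPA effect under each injection, by two-sided moderated tests with Benjamini-Hochberg adjustment over 23942 probes. The number of arrays and the signal over background limit the precision.

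Members and lists were chosen with earlier results of these data known. The text names every member probe, per member the 3 most similar probes, and per list and comparison up to 3 genes with the largest change among those called with groups that do not overlap. Other tested probes of the list genes named by that rule gave 61 values over the comparisons. Of these values 36 were called, all in the direction of the named probe, and 3 were opposite in direction and uncalled. Further list genes are examples picked after their values were seen. Numbers in the array titles were read as litter numbers and used to pair the arrays of an exposure. Deviations from group means within a litter correlated at -0.0303 to 0.0196 across probes. Litter was fitted as a fixed block in the E2 responses and their difference, and as a random block (statmod 1.5.0) in the BPA effects, with a consensus correlation of 0.00952. The alternatives also covered background correction (none), normalization (cyclic loess), source (the authors' table), filtering (none, or detection on 5 arrays), gene-level testing (1 probe per gene symbol), variance (a trend with robust estimation), weights per array, fits of only the groups compared, and fits without each array. The scripts were tested on simulated data. Promoter windows are RefSeq's, and figures were drawn with matplotlib 3.10.9.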

Additional observations from a re-analysis of the deposited data

Results flagged for a closer look

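The E2 response after BPA in utero was set against that after vehicle in utero by an interaction term in the limma fit. Calls were made for 3 member probes and 18 named genes of the lists, counting Mmp7, from which nothing is read. Values are log2 differences, BPA minus vehicle exposure. All vehicle-exposed arrays shared 1 slide and all BPA-exposed arrays the other, so that a slide effect on the E2 response and an effect of exposure cannot be told apart.

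Among the members the difference was -1.83 for Lox (adjusted p = 2.7e-05), -1.77 for Eln (ILMN_2697304, adjusted p = 0.000192) and -1.38 for Mfap5 (adjusted p = 0.00075). Collagens and their enzymes followed with Plod2 at -1.42, Col1a2 at -1.32, Col3a1 at -1.19, Col1a1 at -1.19, Pcolce2 at -0.68 and P4hb at -0.38. Of the elastic fibre partners Fbln2 was at -1.31, Mfap2 at -1.26 and Mfap4 at -0.83. The protease gene Ctsk was at -0.98, and the fibronectin gene Fn1 at -0.51, Lum at -0.58 and Pmepa1 at -0.62 were also lower. No other tested probe of Fn1, Lum or Pmepa1 was called in the difference. Higher differences were found for Timp4 (1.56), Tgfbi (1.15), Thbs1 (0.69) and Ccn2 (0.53, with another of its probes called at 1.24). Timp4 was not above background on the BPA-vehicle arrays, so its size is uncertain. Mmp7 (0.86) was above background only on the vehicle-vehicle arrays and was tested only because of them, so its call is a product of the filter and nothing is read from it. With litter as a block Pcolce2 (adjusted p = 0.0588), P4hb (0.134), Mmp7 (0.0604), Lum, Fn1, Thbs1, Pmepa1 and Ccn2 were no longer called, and the other 10 list genes and the 3 members were.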

How the results depend on the processing

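Over 35 member values and 21 alternatives, 615 of 678 refitted values stayed on their side of the threshold, 46 lost their call and 17 gained one. No called value turned in sign, but 15 of the 615, all uncalled, did, at -0.08 to 0.21 (Loxl1, Loxl4 and Mfap5). Lox, Eln (ILMN_2697304) and Mfap5 kept their calls in every alternative run with E2 after BPA (-2.21 to -2.01, -1.53 to -1.27 and -1.33 to -1.16), in the difference, and among E2-injected offspring, as did Lox among vehicle-injected offspring (-0.79 to -0.60). The calls of the E2 response after vehicle in utero (2 arrays a group) were fragile. The count of 3 member probes became 0 in the compared groups alone and with litter as a block (3 at limma's unadjusted p under 0.05 in each), and ranged from 0 to 3 when each array was left out. It was 0 without vehicle-E2 array 2 (2 at an unadjusted p), and 1 without vehicle-vehicle array 2 or vehicle-E2 array 1. The paired fit changed no other member call. Over all probes that comparison's 4326 calls became 1368 in the compared groups alone and ranged from 2582 to 4201 with an array left out (2582 to 2820 without any of the 4 arrays compared).

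Without vehicle-vehicle array 1 Lox was at -0.27 there (adjusted p = 0.135), and without vehicle-E2 array 1 or 2 its adjusted p was 0.104 or 0.0861. Loxl1 was lost there without vehicle-vehicle array 2 (0.0951), vehicle-E2 array 1 (0.0596) or array 2 (0.0872). Eln (ILMN_2697304) was called there without vehicle-vehicle array 1 (0.45, adjusted p = 0.0346).

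The difference between the responses had 3 member probes and 2908 in all. It had 5 member probes with the authors' table and with a variance trend, where Loxl1 and the dim Eln probe joined, and 1879 in all with litter as a block. Leaving out an array gave 3 to 4 and 2007 to 2464. The 2 member calls of the BPA effect among vehicle-injected offspring became 1 under cyclic loess, without a filter, with detection on at least 5 arrays, with 1 probe per gene symbol, with array weights and in the compared groups alone, the dim Loxl4 probe being the lost or untested one. With no background correction, the authors' table, a variance trend or without vehicle-vehicle array 1 the count stayed at 2 only because the bright Eln probe replaced that Loxl4 probe, as the dim Eln probe did without BPA-vehicle array 2. They ranged from 1 to 2 with an array left out, at 1 without vehicle-vehicle array 2, either vehicle-E2 array, BPA-vehicle array 1 or 3, or BPA-E2 array 3, and all calls from 4170 (without vehicle-vehicle array 1) to 6278. Among E2-injected offspring these ranges were 3 to 4 and 4094 to 6338 (4094 and 4129 without vehicle-E2 array 1 and 2), and with E2 after BPA 3 to 3 and 4430 to 5882. Of 82 named list values 54 kept their call in every alternative and 28 lost it in at least 1, 9 of 12 in the E2 response after vehicle in utero, 3 of 17 after BPA, 8 of 18 in the difference, and 6 of 17 (Adamtsl2, Col14a1, Col3a1, Col5a3, Lum, P3h2) and 2 of 18 (Pcolce2, Tgfb2) in the BPA effects under vehicle and E2, and 0 turned. These counts include Mmp7, which kept its call among vehicle-injected offspring wherever it was tested and lost it in the difference. It passed the filter only through the vehicle-vehicle arrays, so nothing is read from either value. No scaling moved the median of all probes by over 0.1. Dim probes of Loxl4 and Eln limit what can be said of them.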
